A study of Mus musculus with 8 samples.

Results

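MHC class I presentation was described through 10 genes of 27998 listed in each matrix: the heavy chain genes H2-K1, H2-D1, H2-Q7 and H2-T23, the light chain gene B2m, the peptide transport and loading genes Tap1 and Tapbp, and the immunoproteasome genes Psmb8, Psmb9 and Psmb10. They were taken by symbol and had been chosen by their measured levels in these same 2 libraries, with IR-to-sham differences already known, so all differences below are descriptions and none carries a test. The cells came from the left ventricles of male mice on a C57BL/6 background, aged 10 to 12 weeks, after ischemia and reperfusion (IR) or a sham operation. In IR the left anterior descending coronary artery was tied for 30 min and then released, and sham animals had the same surgery without the tie. The labels' protocol puts both operations 6 h before collection, while 4 samples are titled 0 h and 4 are titled 6 h, so sham here means the matrix recorded at 0 h and IR the one at 6 h. Cells of 3 hearts were pooled into a sample, and the labels name no genotype or agent.

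Class I molecules are a heavy chain, B2m and a short peptide, and they show the peptide at the cell surface to CD8 T cells and NK cells. The peptides are cut from cytosolic proteins by the proteasome, carried into the endoplasmic reticulum by the TAP transporter and loaded with the help of tapasin, the product of Tapbp. Interferons are textbook inducers of the whole pathway, including the catalytic subunits that turn the constitutive proteasome into the immunoproteasome.

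Nearly all of the genes lie in the MHC region. H2-K1 (chr17:33996017-34000347, minus strand), H2-D1 (chr17:35262730-35267499, plus strand), H2-Q7 (chr17:35439155-35443773, plus strand) and H2-T23 (chr17:36029773-36032855, minus strand) are protein-coding genes of GRCm38, the mm10 build of the counts, in the GENCODE annotation used here. Tapbp (chr17:33915899-33929292), Tap1 (chr17:34187553-34197225) and Psmb8 (chr17:34197721-34201454) lie on the plus strand of the same region, and Psmb9 (chr17:34181987-34187764) on the minus strand. The RefSeq starts of Tap1 and Psmb9 face away from each other across 225 bases. B2m (chr2:122147686-122153083, plus strand) and Psmb10 (chr8:105935735-105938444, minus strand) lie elsewhere.

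The stretches before the starts of 5 genes are shown because they carry letters resembling interferon-stimulated response elements or kappa-B sites. They are RefSeq promoter sequences of build GRCm38.p6, written 5′ to 3′ on each gene's own strand, with the matches in capitals. The stretches lie at chr17:34000368-34000467 (H2-K1, minus strand), chr17:35439015-35439114 (H2-Q7, plus strand), chr17:35262923-35262952 (H2-D1, plus strand), chr2:122147537-122147636 (B2m, plus strand) and chr17:36032809-36032838 (H2-T23, minus strand).
H2-K1: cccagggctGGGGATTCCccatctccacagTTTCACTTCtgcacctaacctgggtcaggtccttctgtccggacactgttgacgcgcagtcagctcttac
H2-Q7: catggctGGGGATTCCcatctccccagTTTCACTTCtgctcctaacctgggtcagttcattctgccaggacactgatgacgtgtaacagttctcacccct
H2-D1: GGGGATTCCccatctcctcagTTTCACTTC
B2m: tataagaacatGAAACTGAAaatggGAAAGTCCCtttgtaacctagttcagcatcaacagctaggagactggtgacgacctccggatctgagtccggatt
H2-T23: gggatcctactgctTTCTCTTTCataaaga

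The interferon-type pattern searched was GAANNGAAA or GAAANNGAA and the kappa-B-type pattern GGGGATTCC or GGGACTTTC, on both strands of the 250 bases before each start. Both patterns were found before H2-K1, H2-D1, H2-Q7 and B2m, that is before 4 of the 10 genes, against 33 of 32851 promoters in the whole RefSeq set. The first pattern alone was found before 5 of the 10 genes, H2-T23 being the fifth, and in 12.5% of all promoters. The second alone was in 0.502% of all promoters. It was searched as these exact letters and not as a general kappa-B consensus. GGGGATTCC matched the related heavy chain genes H2-K1, H2-D1 and H2-Q7, and GGGACTTTC matched B2m on the other strand. The counts against all promoters are therefore a description of these letters and no test. The letters TGACG, downstream of both patterns in the stretches of H2-K1, H2-Q7 and B2m, stood before 6 of the 10 genes and in 17.8% of all promoters. Of the 10 interferon-response genes listed further on, 7 held the first pattern and 0 the second. A match describes letters only and is not evidence of a bound site. Psmb8, Psmb9, Psmb10, Tap1 and Tapbp held neither pattern and were lower in IR as well, and a part of these letters in the ratios was not tested. The stretches of H2-D1 and H2-T23 overlap exons of longer GENCODE transcripts.

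Each library holds unique molecular identifiers (UMIs), each standing for a captured RNA molecule counted near its 3′ end, so counts do not scale with gene length. The sham matrix had 58653308 UMIs in 11620 barcodes and the IR matrix 75033226 in 8539. All barcodes of a matrix carry the same suffix and name no sample, so the 4 samples of a group formed 1 library and nothing that separates the libraries could be checked against replicates. The study's filter (200 to 2500 genes and at most 30% mitochondrial UMIs) left 9777 sham and 4880 IR cells, fewer of each than the study states, so these cells are not the same set, and 30 barcodes occurred in both matrices. Cells were classed by their own UMIs of marker genes, none of which is among the 10 genes, and 9 classes had at least 50 cells in both libraries. They are called macrophage-like (2937 sham and 389 IR cells), monocyte-like (279 and 361), neutrophil-like (238 and 2255), B-cell-like (1110 and 699), T-cell-like (442 and 277), NK-cell-like (218 and 63), endothelial-like (243 and 67), fibroblast-like (2953 and 171) and mural-like (762 and 107). In every one of them at least 4 of its 10 leading genes were its own markers in each library and 0 were another class's. The class rule used the same markers and favors this result, so it is no independent check of the class names. Levels are a class's summed UMIs of a gene per 1000000 UMIs of that class (CPM), and 95% intervals are exact and cover counting error only.

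All 10 genes were lower in IR than in sham in all 9 classes, which makes 90 pairs of gene and class, except that 3 pairs whose intervals held 0 turned under other filters, class rules, class totals or depths: H2-K1 in mural-like cells (up to 0.34 on the log2 scale, and 0.04 with another class total), H2-D1 in NK-cell-like cells (up to 0.05) and H2-Q7 in fibroblast-like cells (up to 1.37, in thinned cells). The counting interval of the log2 ratio lay below 0 in 81 of the 90 pairs and held 0 in the other 9. A difference of 2-fold or more was seen in 55 pairs, all of them lower in IR. Over all genes with at least 30 UMIs in a class, 10.2% of 66194 pairs were lower by 2-fold or more and 9.21% were higher. The median log2 ratio of all genes in a class ran from -0.20 to 0.13, and it was off 0 by more than 0.1 in 4 classes, so the shift of the whole transcriptome was small beside that of most of the 10 genes. Sham and IR are 1 library each, so condition and library cannot be told apart.

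**Figure D1:**
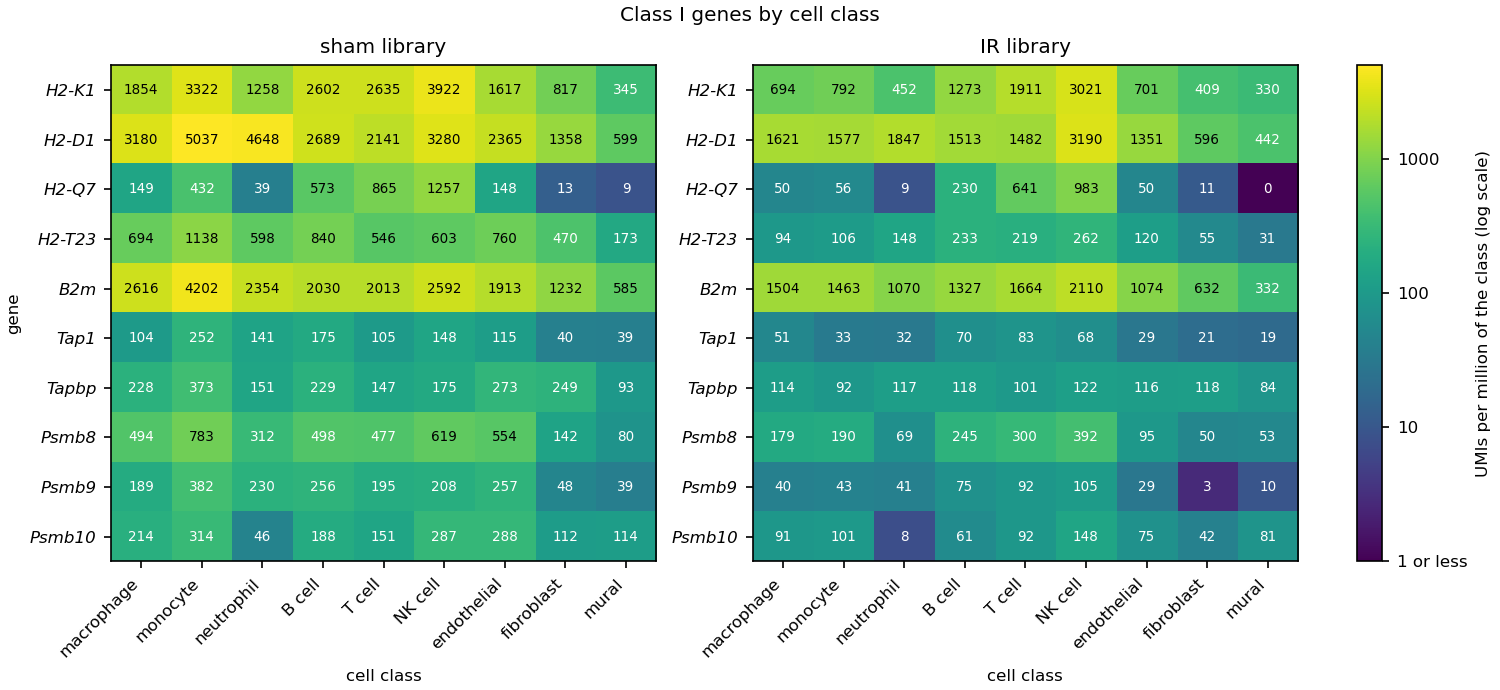
Level of each gene (rows) in each of the 9 cell classes (columns) in the sham library (left) and the IR library (right), in CPM of the class, printed in each cell and colored on a log scale. The same rows are bright in both libraries, and every value on the right is below its partner on the left at this scaling, H2-K1 in mural-like cells being the pair that turned with another class total.

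Among the heavy chains, H2-K1 and H2-D1 are the classical molecules that present to CD8 T cells, and both were at high levels in leukocytes. H2-K1 in sham ran from 345 CPM in mural-like cells to 3922 in NK-cell-like cells, and in IR from 330 to 3021 in the same 2 classes. In monocyte-like cells it stood at 3322 in sham and 792 in IR, a log2 ratio of -2.07 (95% interval -2.15 to -1.99), its widest gap. In mural-like cells, at 345 and 330, the ratio of -0.06 had an interval that held 0 (-0.34 to 0.21).

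H2-D1 was highest in monocyte-like cells in sham (5037 CPM) and in NK-cell-like cells in IR (3190). In 6 of the 9 classes its log2 ratio was nearer to 0 than that of any other of these heavy chains. The ratios ran from -1.67 in monocyte-like cells to -0.04 in NK-cell-like cells, where 3280 in sham and 3190 in IR overlapped within counting error (-0.16 to 0.08). H2-D1 was 2-fold lower in 3 classes and H2-K1 in 5. Of the UMIs of both, H2-D1 made up a larger share in IR, with intervals apart, in 5 classes and a smaller one, with intervals apart, in 0.

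H2-Q7 encodes a nonclassical chain of the Qa-2 family and was the most unevenly spread of the 10 genes. In sham it reached 1257 CPM in NK-cell-like, 865 in T-cell-like and 573 in B-cell-like cells, but 39.3 in neutrophil-like, 13.2 in fibroblast-like and 8.85 in mural-like cells. The order NK, T, B, monocyte, macrophage and endothelial was the same in IR, from 983 in NK-cell-like to 49.7 in endothelial-like cells. The gap between libraries was small in T-cell-like cells (865 and 641, log2 ratio -0.43) and wide in monocyte-like cells (432 and 55.7, log2 ratio -2.96, -3.24 to -2.68). In mural-like cells 16 UMIs in sham faced 0 in IR, and the upper limit of the log2 ratio was 0.16. In fibroblast-like cells it stood at 13.2 and 11.2 (-0.24, -1.47 to 0.77), so no difference was detectable at this depth in either class.

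H2-T23 encodes Qa-1, the nonclassical chain read by the NK receptor pair CD94 and NKG2A, and it was 2-fold or more lower in IR in all 9 classes. In monocyte-like cells it stood at 1138 in sham and 106 in IR, a log2 ratio of -3.43 (-3.63 to -3.23). In fibroblast-like cells it stood at 470 and 54.6 (log2 ratio -3.11, -3.60 to -2.65), in macrophage-like cells at 694 and 94.5 (-2.88, -3.08 to -2.68) and in mural-like cells at 173 and 31.1 (-2.48, -3.40 to -1.68). Even in the lymphocytes the gap exceeded counting error. T-cell-like cells had 546 in sham and 219 in IR (-1.32, -1.51 to -1.14) and NK-cell-like cells 603 and 262 (-1.20, -1.61 to -0.81).

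Set against H2-K1, H2-T23 made up a smaller share in IR in every class. It made up 36.5% of the UMIs of both genes in sham fibroblast-like cells and 11.8% in IR (8.51 to 15.8), and 13.3% and 7.97% (6.16 to 10.1) in NK-cell-like cells. The intervals of sham and IR were apart in all 9 classes. Close paralogs can share reads, and of the 90-base words in the last 500 bases of its transcripts, H2-T23 shared 13.4% with another gene in the annotation used here, H2-Q7 shared 4.73% and H2-K1 shared 0.151%. The other 7 genes shared none. The genes that shared most with H2-T23 were Rab33b, Hook2 and H2-T-ps, of which only the last is named as an H2 gene. For H2-Q7 it was H2-Q5.

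B2m, the light chain that every classical heavy chain needs, was high in all classes. In sham it ran from 585 CPM in mural-like cells to 4202 in monocyte-like cells, and in IR from 332 in mural-like to 2110 in NK-cell-like cells. Its log2 ratios were among the smaller ones and all had intervals below 0, from -0.27 in T-cell-like cells (2013 and 1664) to -1.52 in monocyte-like cells (4202 and 1463). B2m was 2-fold lower in 2 of the 9 classes, the monocyte-like and neutrophil-like.

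**Figure D2:**
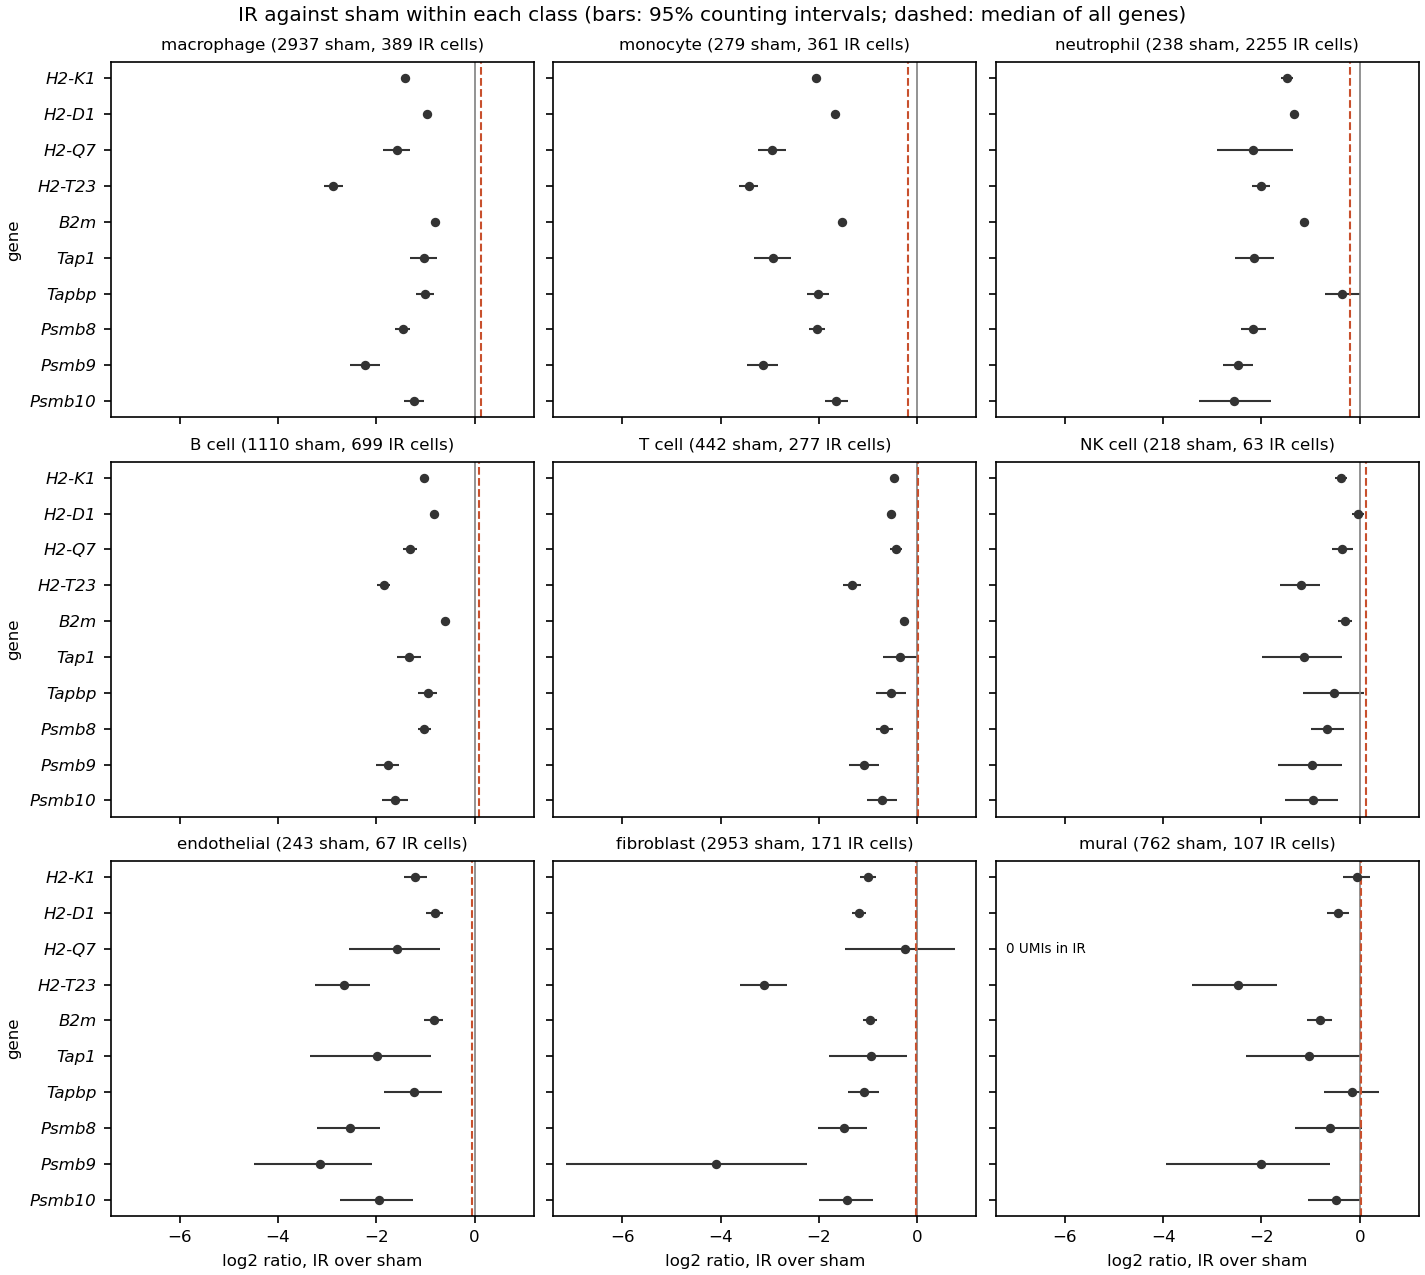
Log2 ratio of IR over sham for each gene in each class, with exact 95% counting intervals as bars, 0 as the solid line and the median of all tested genes as the dashed line. All points lie left of 0 at this scaling (H2-K1 in mural-like cells turned with another class total), with H2-T23 or Psmb9 farthest left in 8 of the 9 classes. H2-Q7 in mural-like cells, at 0 UMIs in IR, has no point.

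Tap1, a subunit of the peptide transporter, and Tapbp, which bridges it to the heavy chain, were low-level transcripts. Tap1 in sham ran from 39.3 CPM in mural-like to 252 in monocyte-like cells, and in IR from 19.1 in mural-like to 83.0 in T-cell-like cells. In monocyte-like cells its 252 in sham faced 33.0 in IR, a log2 ratio of -2.94 (-3.32 to -2.58). T-cell-like cells, at 105 and 83.0, had the smallest gap (-0.35, -0.69 to -0.00).

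Tapbp was spread more evenly over the classes than any other of the 10 genes in IR, from 83.7 in mural-like to 122 in NK-cell-like cells, and the intervals of all 8 neighboring classes in that order overlapped. In sham it ran from 92.9 in mural-like to 373 in monocyte-like cells. Tapbp was 2-fold lower in IR in 4 classes. In neutrophil-like cells it stood at 151 and 117, where its log2 ratio (-0.37, -0.71 to -0.00) was the smallest in that class.

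Psmb8, Psmb9 and Psmb10 encode the catalytic subunits that replace the products of Psmb5, Psmb6 and Psmb7 in the immunoproteasome. Psmb9 had the lowest levels of the 3 in most IR classes and the widest gap in 8 of the 9 classes. It stood at 48.0 CPM in sham and 2.80 in IR in fibroblast-like cells (-4.10, -7.15 to -2.24), the latter resting on 2 UMIs. In endothelial-like cells it stood at 257 and 29.0 (-3.15, -4.48 to -2.08) and in macrophage-like cells at 189 and 40.4 (-2.23, -2.54 to -1.93). All 9 intervals of Psmb9 lay below 0, and 8 classes were 2-fold lower, with NK-cell-like cells just short of it at -0.98.

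Psmb8 had the most UMIs of these subunits in every class but the mural-like, at 783 in sham and 190 in IR in monocyte-like cells (-2.04, -2.20 to -1.88). In endothelial-like cells, where it was 554 in sham and 95.3 in IR, the ratio of -2.54 (-3.21 to -1.94) was its lowest. Psmb10 was lowest in neutrophil-like cells, at 45.5 in sham and 7.71 in IR (-2.56, -3.27 to -1.80). In NK-cell-like cells Psmb10 was 287 and 148 (-0.96, -1.52 to -0.43).

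The constitutive partners had smaller gaps in most classes. None of Psmb5, Psmb6 and Psmb7 was 2-fold lower or higher in any class, over 27 pairs of gene and class. Their class medians ran from -0.57 in NK-cell-like to 0.21 in mural-like cells. In NK-cell-like cells this was near the median of the 10 genes (-0.59), with Psmb5 at 233 in sham and 143 in IR (-0.70, -1.28 to -0.16). The intervals of Psmb5 and Psmb6 also lay below 0 in B-cell-like and T-cell-like cells, and that of Psmb6 in NK-cell-like cells. Psmb5 was likewise lower in monocyte-like (-0.41, -0.63 to -0.20) and neutrophil-like cells (-0.89, -1.36 to -0.38). The interval of Psmb7 lay above 0 in macrophage-like, neutrophil-like and endothelial-like cells. Among the other 11 subunits of the 20S core, 3 of 99 pairs were 2-fold lower and 0 higher.

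The share of the immunoproteasome subunit within each pair differed between the libraries. Psmb9 made up 50.4% of the UMIs of Psmb9 and Psmb6 in sham macrophage-like cells (49.1 to 51.8) and 17.1% in IR (14.0 to 20.5). In monocyte-like cells the share was 70.6% and 21.5%, and in fibroblast-like cells 18.6% and 1.29%. The Psmb8 share of Psmb8 and Psmb5 was 77.1% in sham and 40.4% in IR in endothelial-like cells, while in NK-cell-like cells it was 72.6% and 73.2%, with overlapping intervals. The Psmb9 share was lower in IR with intervals apart in 8 classes, the Psmb8 share in 6 and the Psmb10 share in 6.

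**Figure D3:**
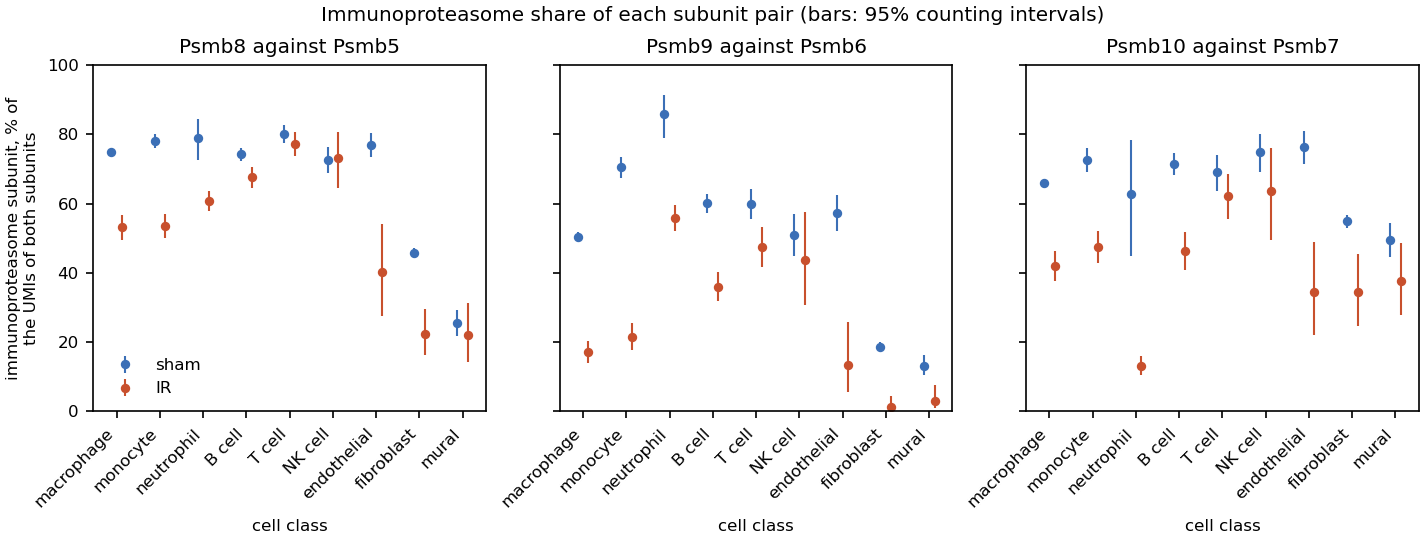
Share of the immunoproteasome subunit in the UMIs of each pair of alternative subunits (vertical axis, percent) by class, in sham (blue) and IR (orange), with exact 95% intervals as bars. The orange points lie below the blue ones in 26 of the 27 pairs of subunit and class, the exception being Psmb8 in NK-cell-like cells.

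Counted by class, the genes 2-fold or more lower in IR ranged from 2 to 10. In monocyte-like cells 10 of the 10 genes were 2-fold or more lower in IR, with a median log2 ratio of -2.06, where 17.4% of 7096 tested genes were lower by as much and 11.7% higher. In neutrophil-like cells 9 genes were (median -2.08), against 16% of all genes lower and 13.4% higher. Endothelial-like cells had 8 genes (median -1.76), beside 11.5% lower and 7.69% higher. Macrophage-like cells also had 8 (median -1.33), beside 7.29% lower and 9.7% higher.

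B-cell-like cells had 7 genes 2-fold or more lower (median -1.17), beside 4.14% of all genes lower and 4.71% higher. Fibroblast-like cells had 6 (median -1.14), beside 14.1% lower and 12% higher, but 10 without the upper limit on genes, where IR held 1526 such cells in place of 171. Mural-like cells had 3 (median -0.55), namely H2-T23, Psmb9 and Tap1, the last with an interval that held 0 (-2.30 to 0.02), beside 9.54% lower and 6.8% higher. T-cell-like and NK-cell-like cells had 2 each, with medians of -0.53 and -0.59, and the NK-cell-like count was 1 without the upper limit on genes and 4 with size factors or thinned cells. The background there was 3.42% lower and 4.81% higher in T-cell-like, and 7.23% and 11.7% in NK-cell-like cells. Since the genes were chosen with this difference known, nothing is read from these counts beyond their size.

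The order of the classes was not the same in the 2 libraries. Summed over the 10 genes, sham monocyte-like cells came first with 16237 CPM (16038 to 16438), followed by NK-cell-like cells with 13091. In IR the NK-cell-like cells came first with 10402 (9995 to 10821), followed by T-cell-like cells with 6585 and B-cell-like cells with 5145. Monocyte-like cells came next in IR with 4453, which overlapped with macrophage-like cells at 4437. Without the upper limit on genes, IR held 1248 monocyte-like cells in place of 361. They then stood at 4059, below macrophage-like (4403) and endothelial-like cells (4128). Fibroblast-like (4482 in sham and 1936 in IR) and mural-like cells (2075 and 1382) were lowest in both. The ratio of highest to lowest class was 7.82 in sham and 7.53 in IR.

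The monocyte-like class was not made of the same states in the 2 libraries. Among cells thinned to 1000 UMIs, 177 of 276 sham cells leaned to the classical state by their markers (64.1%) and 99 to the patrolling state. In sham 0 of 276 leaned to the recruited state marked by Thbs1, Arg1 and F10, a count that allows up to 1.09% at 3 counts of the total, with an exact upper limit of 1.33%. In IR 159 of 342 cells were classical (46.5%), 127 recruited and 56 patrolling. The gap held within each state that both libraries had. The 10 genes summed to 14919 CPM in sham and 4304 in IR in classical cells, 3.47-fold lower, and to 19573 and 7914 in patrolling cells, 2.47-fold lower. All 10 genes were lower in IR in both states, 10 of them by 2-fold or more in classical and 9 in patrolling cells. The recruited cells of IR had the lowest sum, 3277.

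Macrophage-like cells were split by whether 1000 of their UMIs held any of Folr2, Lyve1, Cd163 or Cbr2, markers of resident macrophages. Cells with such a UMI summed to 9256 in sham and 4692 in IR, 1.97-fold lower, and cells without it to 10286 and 4225, 2.43-fold lower. H2-T23 showed the widest gap in both, with log2 ratios of -2.68 and -3.07. B2m showed the smallest, at -0.64 and -0.96.

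The gap was spread over the cells of a class. After thinning each cell to 1000 UMIs, the median sham monocyte-like cell held 16 UMIs of the 10 genes and the median IR one 4. The 5th percentile of sham (7) was above the 75th percentile of IR (6). In macrophage-like cells the medians were 8 and 4, and the sham cells were also more spread, with a 95th percentile of 20 against 10. In NK-cell-like cells the medians of 13 and 11 lay within each other's quartiles.

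**Figure D4:**
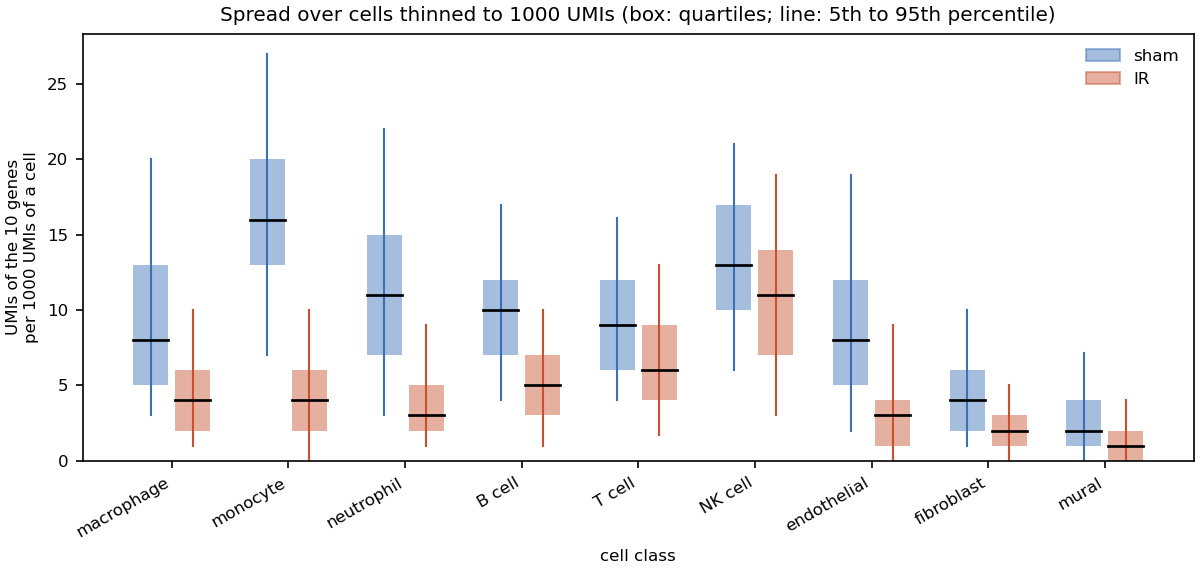
UMIs of the 10 genes in each cell after thinning to 1000 UMIs, by class, in sham (blue) and IR (orange), with the median as a black line, quartiles as boxes and the 5th to 95th percentile as thin lines. The boxes of monocyte-like cells, 13 to 20 in sham and 2 to 6 in IR, lie apart, and those of NK-cell-like cells overlap.

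Interferon-response genes were mostly also lower in IR, and their part in the class I ratios was not tested. The split of cells given here is a description. Of a list of 10 (Ifit1, Ifit2, Ifit3, Isg15, Rsad2, Oasl1, Irf7, Cxcl10, Ifi47 and Igtp), 67 of 85 pairs of gene and class were 2-fold or more lower in IR and 5 were higher. Isg15, an antiviral ubiquitin-like protein, stood at 1355 CPM in sham and 94.9 in IR in monocyte-like cells (log2 ratio -3.84) and at 267 and 42.8 in T-cell-like cells (-2.64). Ifit3, an antiviral RNA-binding family member, and Irf7 were 2-fold lower in all 9 classes. Cxcl10 was 2-fold higher in IR in 4 classes and lower in 1, and Oasl1 was higher in fibroblast-like cells (7.13 and 18.2).

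In sham, cells with more interferon-response UMIs held more class I UMIs, and in IR this was less uniform. Sham macrophage-like cells with 0, with 1 or 2, and with 3 or more such UMIs in 1000 summed to 6661, 9833 and 13810 CPM over the 10 genes. In sham mural-like cells the same groups summed to 1375, 2782 and 3678. In sham neutrophil-like cells the first groups overlapped within counting error, at 5607 (5192 to 6046) and 6055 (5523 to 6625). The same held in sham NK-cell-like cells, at 12668 (12303 to 13040) and 13350 (12913 to 13798). In IR macrophage-like cells the first groups hardly differed, at 4140 (4041 to 4241) and 4234 (4042 to 4432), and the last stood at 6308. In IR monocyte-like cells the same groups stood at 4338, 4669 and 4940. In IR neutrophil-like cells they stood at 3467, 3866 and 5889, with all intervals apart. IR T-cell-like cells had 6581 (6434 to 6731) with 0 such UMIs and 6475 (6209 to 6750) with 1 or 2, level within counting error. The share of cells without such a UMI was 45.4% in sham and 71.5% in IR macrophage-like cells, and 11.2% and 72.8% in monocyte-like cells.

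Cells without any interferon-response UMI still differed between the libraries in most classes. In macrophage-like cells of this kind, 1313 in sham and 268 in IR, all 10 genes were lower in IR, and H2-T23 had a log2 ratio of -2.45. By 2-fold or more 4 of them were lower, beside 5.35% of all genes with at least 30 UMIs. In B-cell-like cells all 10 were lower and 5 by 2-fold or more, beside 3.35% of all such genes. Mural-like cells were unlike the rest, with 4 of 9 genes lower and a sum of 1375 in sham (1307 to 1447) and 1304 in IR (1190 to 1426). Among neutrophil-like cells, where sham had 38 such cells, B2m (0.22) and Tapbp (0.06) were higher in IR on the log2 scale and the other 8 lower.

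**Figure D5:**
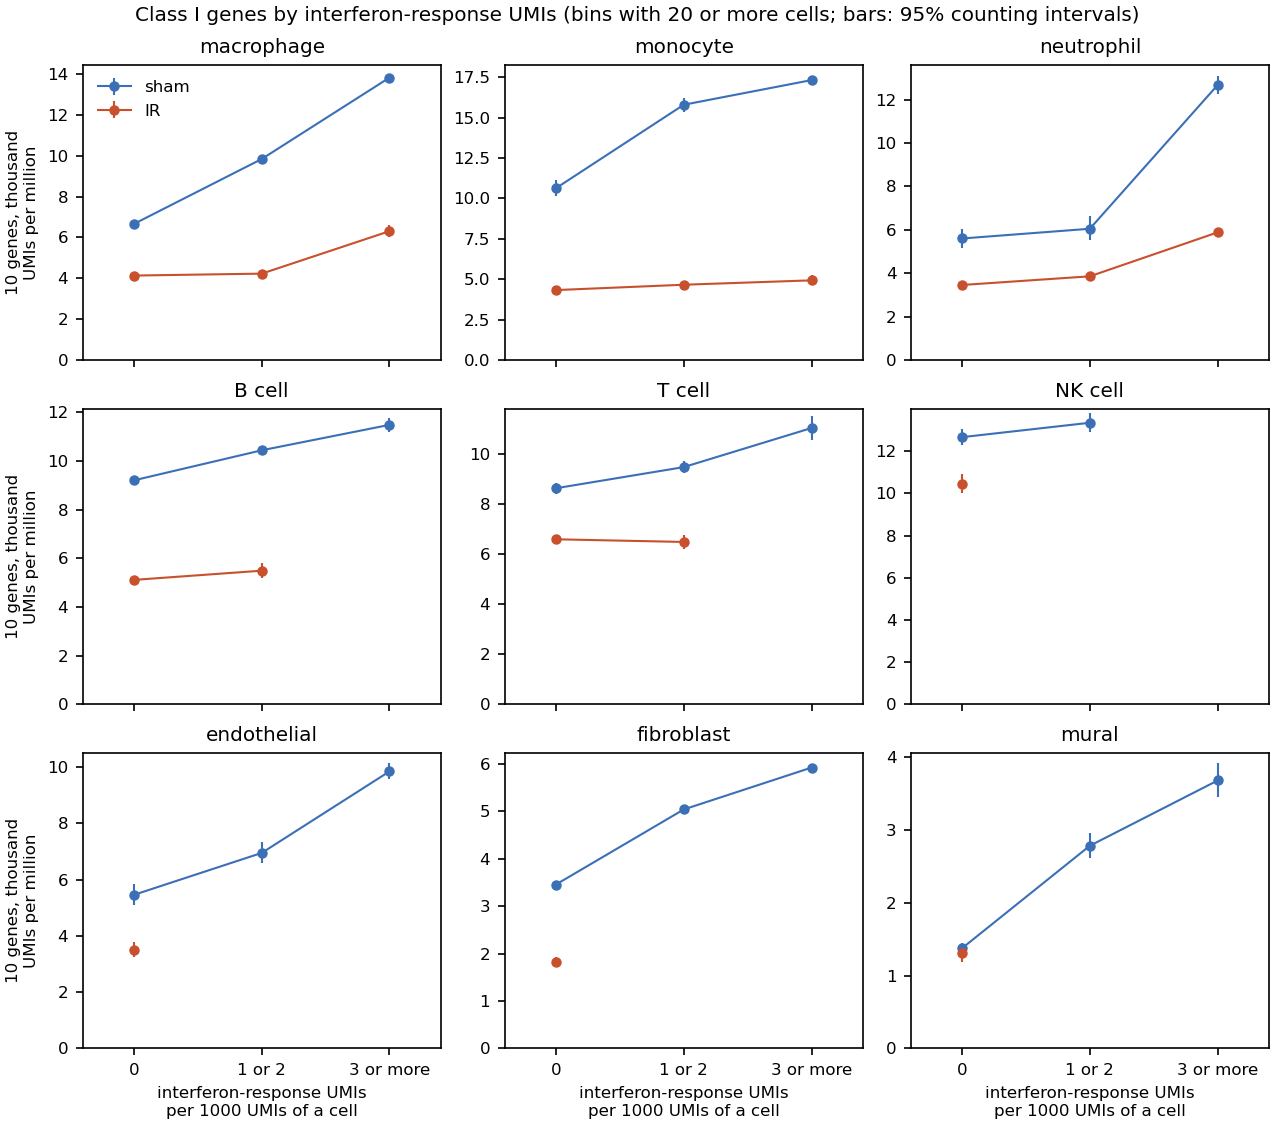
Summed level of the 10 genes (1000 CPM) in cells grouped by their UMIs of the interferon-response genes per 1000, for each class in sham (blue) and IR (orange), with exact 95% counting intervals and only groups of at least 20 cells. The sham lines climb from left to right in all 9 classes, with overlapping intervals of the first groups in neutrophil-like and NK-cell-like cells. In cells without such a UMI the 2 libraries meet only in mural-like cells.

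The regulators of the pathway were less uniform. Irf9, a transcription factor of the type I interferon response, was 2-fold or more lower in IR in 6 classes, among them the monocyte-like at 79.0 in sham and 25.8 in IR (log2 ratio -1.61). Irf1, which binds interferon response elements of class I promoters, was lower by as much in 2 classes and stood at 91.7 and 119 in T-cell-like cells. Nlrc5, the class I transactivator, was a rare transcript, lower in monocyte-like (27.4 and 9.80) and B-cell-like cells (20.7 and 8.14), and near level in macrophage-like cells (15.3 and 12.8, -0.86 to 0.30 on the log2 scale).

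Psme1 and Psme2 encode the activator that docks on the proteasome and is itself induced by interferon-gamma. Psme1 stood at 424 in sham and 167 in IR in macrophage-like cells (-1.34) and was 2-fold lower in 7 classes, and Psme2 at 274 and 101 (-1.44) and in 8. Pomp, the assembly chaperone, was not 2-fold off in any class. Of the loading list, Tap2, the other transporter subunit, was 2-fold lower in 3 classes. Calr, a chaperone of the loading complex, was 2-fold lower in IR in 5 classes, among them the macrophage-like (1197 and 537), and 2-fold higher in 0. It was higher in IR by less than 2-fold in monocyte-like (546 and 872) and neutrophil-like cells (82.7 and 136). Canx was not 2-fold off in any class, and Erap1, the trimming peptidase, was 2-fold higher in 2.

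Other heavy chains followed the members in part. Over the 15 listed chains found in the matrices, 28 of 63 pairs were 2-fold lower and 0 higher, with class medians from -2.06 in neutrophil-like to 0.16 in NK-cell-like cells. H2-T22 was lower in monocyte-like cells (291 and 22.7, -3.68) and level within counting error in NK-cell-like cells (178 and 156, -0.76 to 0.35). H2-Q4 was 2-fold lower in 6 classes, stood at 298 and 321 in T-cell-like cells and was higher in IR in NK-cell-like cells (277 and 392, log2 ratio 0.50, 0.13 to 0.87). H2-Q4 and H2-Q6 belong to the same Q cluster as H2-Q7 and have similar sequences.

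On the side of the readers and inducers, the interferon receptor genes were not lower by 2-fold in any class. Ifngr1 and Ifnar1 were each 2-fold higher in IR in 2 classes , for example in NK-cell-like cells at 755 and 1730 for Ifngr1. Ifng, named after its values were seen, had its highest levels in NK-cell-like cells at 238 and 169 (-1.03 to 0.01 on the log2 scale) and in T-cell-like cells at 32.5 and 4.61. Ifnb1, also named after its values were seen, stood in macrophage-like cells at 65.3 in sham and 8.51 in IR (log2 ratio -2.94, -3.66 to -2.30). Klrc1, which encodes NKG2A, stood in NK-cell-like cells at 281 in sham and 452 in IR (log2 ratio 0.68, 0.33 to 1.03), and its partner Klrd1 at 1076 and 924 (-0.22). Klrc1 was also named after its values were seen. Lilrb4a, an inhibitory myeloid receptor of a family in which some members bind class I, was highest in neutrophil-like cells at 552 in sham and 2006 in IR and was 2-fold higher in IR in all 9 classes. In classes that should lack it, such as B-cell-like (6.59 and 73.3) and fibroblast-like cells (4.20 and 64.4), these levels are not read as expression, and the part of free neutrophil RNA was not tested.

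Neutrophil transcripts were also higher in most other classes of IR, and their part in the ratios was not tested beyond leaving out cells that held them. The 11 neutrophil markers summed to 110 CPM in sham and 1233 in IR in macrophage-like cells, 692 and 4376 in NK-cell-like cells, and 80.5 and 1463 in endothelial-like cells, while monocyte-like cells had 2547 in each. In fibroblast-like cells the 12 monocyte markers summed to 1105 and 3025 and their own 11 markers to 56192 and 33115, and 2.13% of sham and 32.2% of IR cells lay near the class threshold. That share was higher in IR in every compared class. It was 10.8% and 28.3% in macrophage-like, 21.5% and 30.7% in monocyte-like and 5.77% and 23.4% in mural-like cells. In mural-like cells the 11 endothelial markers summed to 1408 and 3810. The part of these in the ratios was not tested. Of the 11 neutrophil markers, 1 to 4 were at 0 in a sham class other than the neutrophil-like and 0 or 1 in such an IR class. Among cells without a UMI of S100a8 or S100a9 in 1000, 76 of 79 pairs outside the neutrophil-like class were still lower in IR. The median UMIs of a kept cell also differed, at 1631.5 in sham and 3950 in IR for neutrophil-like and 4628 and 6534 for macrophage-like cells. The part of depth in these ratios was not tested. Random thinning to 1000 UMIs keeps the expected share of each gene within a cell, so it cannot decide this. In thinned cells 88 of 89 pairs were lower in IR.

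Across the 18 combinations of class and library, the genes outside the 10 that ran most like B2m among those with at least 1000 UMIs were Sh3bgrl3, Zbp1, Tmsb4x, Trim30a and Arrdc1, with Pearson r of log2(CPM + 10) from 0.86 to 0.89. For Tap1 they were Ifi47, Pydc4, Sp100, Pydc3 and Gm4955, with r from 0.90 to 0.93. For Psmb8 they were Psme1, Sp110, Arrdc1, Pydc3 and Ifi47, with r from 0.89 to 0.93. Between members, r was 0.96 for Tap1 and Psmb9 and for B2m and H2-D1. Among the members, Psmb10 and Tapbp ran least like B2m, with r of 0.53 and 0.68. The points share libraries and depth, so these values are descriptions over 6077 genes.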

How the data were processed

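Droplet counts of heart cells were analysed as 1 matrix per condition, with groups from the sample titles. The authors made them with Cell Ranger (3.1.0 per the file headers) on mm10 and deposited them as whole-number UMI counts without normalization. Settings for strand and shared reads are not given in the sources used here.

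Cells passed the study's filter. A marker's UMIs per 10000 were divided by its 90th percentile among kept cells with a UMI and limited to 1, and a class score is the mean over its markers. A cell took its best class at a score of at least 0.1 and 1.5 times the second, and cells led by erythroid markers took none, which left 485 sham and 421 IR cells without a class. Dendritic-cell-like, cardiomyocyte-like, Schwann-like and platelet-like cells were under 50 in a library and not compared. Doublets were not removed beyond the limit on genes.

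UMIs were summed per gene, class and library and divided by the class total (CPM). Intervals are exact at 95% (Poisson for levels, conditional binomial for ratios, Clopper-Pearson for shares). No test was run with 1 library per condition. Genes entered a background at 30 UMIs over both libraries, and the floor for a count of 0 was 3 UMIs. Scripts were tested on simulated data. The members, lists and thresholds were chosen with earlier results of these data known. Genes were eligible to be named if they were members, among the 3 most abundant of a list, 2-fold apart in at least 2 classes, or among the 5 most like B2m, Tap1 or Psmb8. RefSeq promoters (GRCm38.p6) matched all 10 members. Python 3.11.15, numpy 2.4.6, scipy 1.17.1, pandas 2.3.3 and matplotlib 3.10.9 were used. The alternatives tried were other cell filters, class rules, scalings, cell weights and depths. A listed regulator is not reported here.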

Additional observations from a re-analysis of the deposited data

How the results depend on the processing

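Each of 8 other filters, class rules, scalings, weights and depths kept at least 86 pairs of gene and class lower in IR, with 49 to 59 of them by 2-fold or more, beside 55 of 90 as reported. Under these the sign turned only for H2-D1 in NK-cell-like, H2-K1 in mural-like and H2-Q7 in fibroblast-like cells, whose reported intervals held 0. Of the counts of genes 2-fold lower, that of NK-cell-like cells (2) was 1 without the upper limit on genes and 4 with size factors or thinned cells. That of fibroblast-like cells (6) was 10 without the upper limit, where IR cells went from 171 to 1526. With all genes of 1 or more UMIs as background, the share lower by 2-fold or more in neutrophil-like cells was 31.4% in place of 16%. The sham monocyte-like sum of 16237 CPM was 16560 under the stricter class rule and 15042 without the upper limit.

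In alternatives chosen after seeing the data, cells without an interferon-response UMI in 1000 gave 38 pairs lower by 2-fold or more. The counts were 4 for macrophage-like, 4 for neutrophil-like and 1 for T-cell-like cells. Of all genes with at least 30 UMIs, 5.35%, 27.4% and 2.83% were lower by as much in these classes. Log2 ratios turned to 0.22 for B2m and 0.056 for Tapbp in neutrophil-like cells (38 sham cells) and to 0.0086 for H2-D1 in mural-like cells. Pairs whose reported intervals held 0 were also above 0 there, namely H2-K1 (0.41), Tap1 (0.38), Tapbp (0.22) and Psmb10 (0.04) in mural-like and H2-D1 (0.05) in NK-cell-like cells. Cells without an S100a8 or S100a9 UMI in 1000 gave 44 of 79. The causes were not tested.

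No paired analysis was possible because the barcodes name no sample, which also kept replicates from being left out in turn. Depth limits H2-Q7 in fibroblast-like and mural-like cells and Psmb9 in fibroblast-like cells, where IR held 2 UMIs. The class rule leaves doublets and free RNA in place.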

Other observations

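Cardiomyocyte-like cells, with 38 in sham and 46 in IR, were too few to compare. The 10 genes summed to 1193 CPM in sham and 408 in IR. B2m stood at 28 UMIs in sham and 20 in IR, and H2-D1 at 21 and 26. Tap1 had 2 UMIs in sham and 0 in IR.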
